A study of Mus musculus with 9 samples.

Results

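Macrophages and their precursors take up, store and export lipid through a small set of genes, and 9 of these were followed here: Lpl, Cd36, Fabp4, Fabp5, Apoe, Abca1, Abcg1, Nr1h3 and Pparg. They were chosen by name, with earlier results of these data known. Every array probe whose transcript accession belongs to any of them was kept. Of the 41174 probes on the array, 11 belonged to 8 of the 9 genes. No probe was matched to Fabp5, whose level is not analysed here. All 11 probes were bright enough to be tested.

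The samples were FDCPmix cells, which are mouse hematopoietic progenitors of several lineages that keep dividing as a cell line when given interleukin 3. All cells were transduced with lentivirus and sorted as viable and GFP positive after 5 days. The EV group received the empty vector, the Gata2 knockdown (KD) group a vector with shRNA against Gata2, and the Pu.1 KD group a vector with shRNA against Pu.1 (the gene Spi1). Each group had 3 arrays, 9 in all. The labels call them triplicate samples of a single cell line and do not say whether the cultures were grown apart, so the p-values measure the spread among these samples. GATA2 is a transcription factor of stem and progenitor cells, PU.1 drives myeloid fate, and the study asked how each acts on the other and on the myeloid program. All 5 progenitor markers used to check the label (Kit, Cd34, Gata2, Meis1 and Myb) read well above background on every array. So did all 5 adipocyte markers measured, so this reading does not tell cell types apart.

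The members cover successive steps of lipid handling. Lipoprotein lipase (LPL) frees fatty acids from circulating triglyceride, CD36 is a scavenger receptor that takes up fatty acids and oxidized lipoproteins, and FABP4 and FABP5 carry fatty acids inside the cell. Surplus cholesterol leaves through the ABC transporters ABCA1 and ABCG1, which load it on to lipid-poor apolipoprotein A-I and on to HDL, and apolipoprotein E (APOE), which macrophages secrete, also accepts it. The nuclear receptors LXRα (Nr1h3) and PPARγ (Pparg) respond to oxysterols and to fatty acid derivatives. In macrophages they switch on much of this set, Abca1, Abcg1 and Apoe being well known targets of LXR, and Cd36 and Fabp4 of PPARγ.

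Levels are given as log2 intensity minus the 75th percentile of the same array, so that 0 is that percentile. Changes are differences of such levels between groups, tested with limma over all 36585 tested probes with Benjamini-Hochberg adjustment, and are called at an adjusted p under 0.05. Between 80.4% and 89.6% of the spots on an array were well above background and no spot was saturated. Precision rests on how many arrays each group has. The 9 arrays came from 3 slides, each with 1 array of each group. EV replicate 3 stood somewhat apart, with a mean correlation of 0.96 with the other arrays against 0.971 or more elsewhere. Both knockdowns lowered their targets. Gata2 fell by 1.61 (adjusted p 0.00414) and by 1.80 (0.000616) on its 2 probes in Gata2 KD. Spi1 fell by 1.73 (0.00178) in Pu.1 KD and rose by 1.39 (0.00120) in Gata2 KD.

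In Gata2 KD 2 of the 8 measured members changed, in opposite directions. Lpl was 12.0-fold higher and Abcg1 4.85-fold lower than in EV. The other 6 members did not pass the test. Among all 15808 named genes, taken as 1 probe each, 7.15% were called in this comparison (4.21% higher and 2.95% lower). The median change of the 8 members was 0.09 and that of all named genes -0.091.

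**Figure D1:**
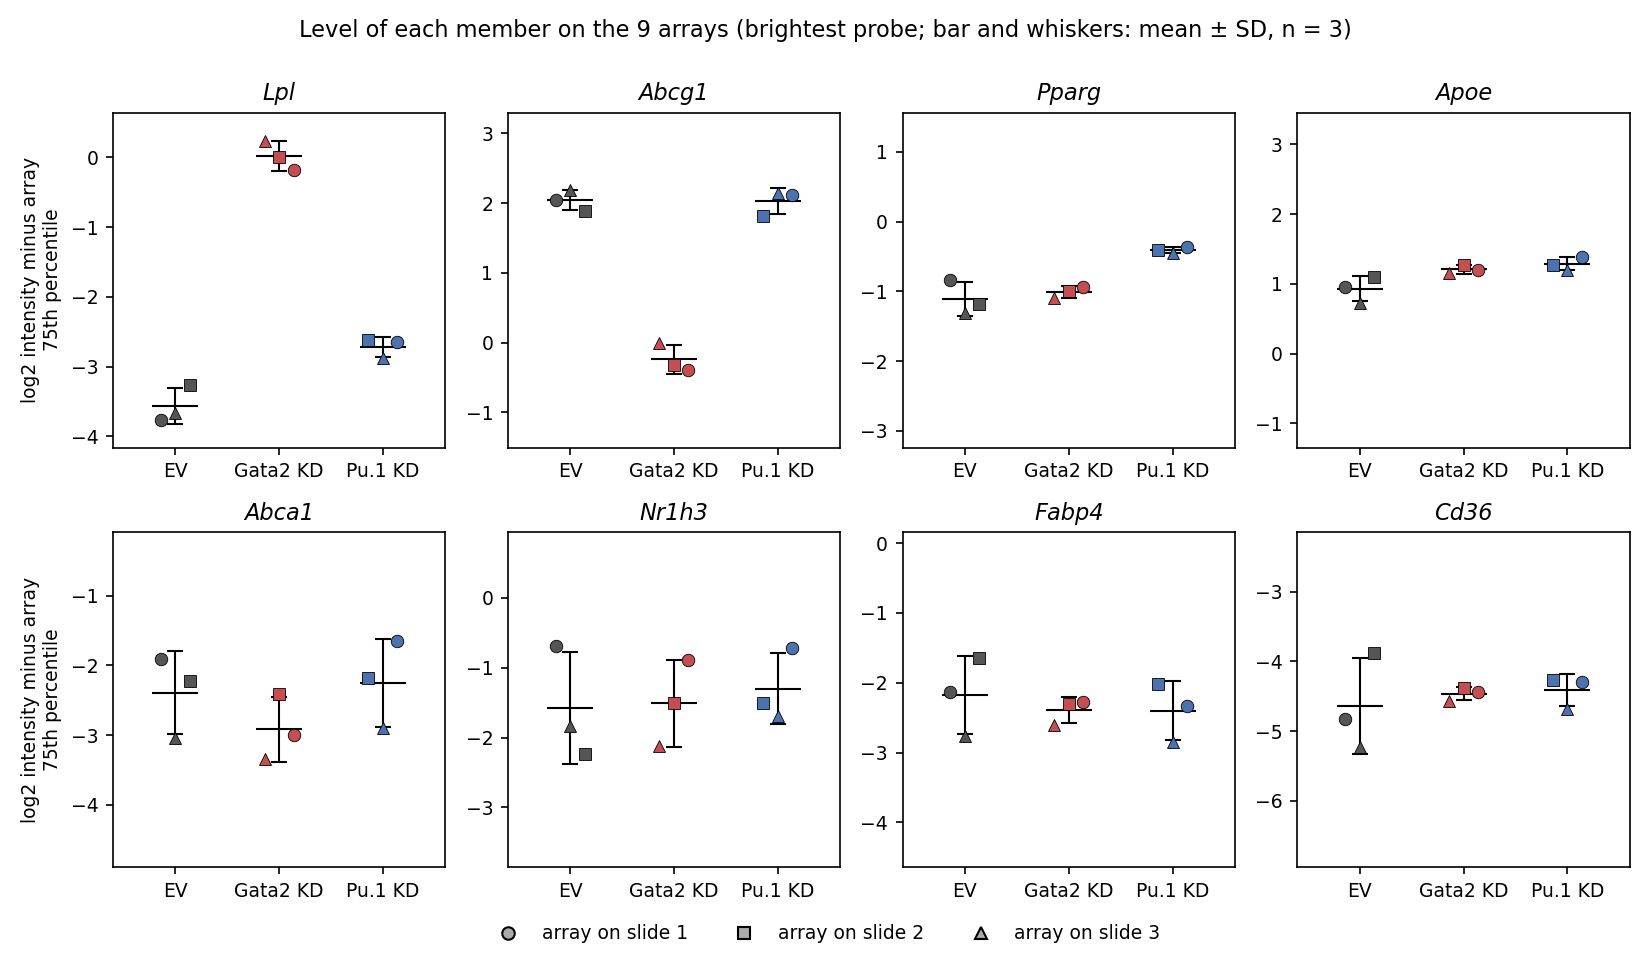
Level of the brightest probe of each of the 8 measured members on the 9 arrays, as log2 intensity minus the 75th percentile of the array. Points are arrays, their shape gives the slide, and the bar with whiskers is the mean ± SD (n = 3). All panels span the same number of log2 units. Lpl is high and Abcg1 low in Gata2 KD, while Abca1, Nr1h3, Fabp4 and Cd36 spread as widely within groups as between them.

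The brighter Lpl probe read -3.76, -3.66 and -3.27 on the EV arrays. It read 0.24, 0.0041 and -0.18 on the Gata2 KD arrays, and -2.62, -2.88 and -2.65 on the Pu.1 KD arrays. All Gata2 KD arrays lay above all others, and the Pu.1 KD arrays lay between the other groups with no overlap. The change in Gata2 KD was 3.58 with an SE of 0.18 and a 95% interval of 3.17 to 4.0 (adjusted p 2.49e-05). Within the 3 slides the difference was 3.58, 3.27 and 3.90, and with slide as a block the adjusted p was 0.000148. The dimmer Lpl probe read -4.28 ± 0.57 (SD, n = 3) in EV and -2.44 ± 0.15 in Gata2 KD. It rose as well, by 1.84 with an SE of 0.29 (3.58-fold, adjusted p 0.00752), and its groups did not overlap either. The interval of the dimmer probe, 1.18 to 2.50, lies below that of the brighter one. The rise of the brighter probe was 2.47 with normexp background correction, 2.74 with the authors' log2 values and 3.73 without EV replicate 3.

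Abcg1, measured by 1 probe, read 2.04, 2.18 and 1.89 in EV. In Gata2 KD the same probe read -0.0038, -0.32 and -0.39. In Pu.1 KD it read 1.81, 2.15 and 2.12. The Gata2 KD arrays lay below all others, and the EV and Pu.1 KD arrays overlapped. The change in Gata2 KD was -2.28 with an SE of 0.17 and a 95% interval of -2.66 to -1.89 (adjusted p 0.000122). The within-slide differences were -2.44, -2.21 and -2.18, and with slide as a block the adjusted p was 0.000169. Over 21 alternatives the change stayed between -2.39 and -2.12 and was called in each, as was the rise of Lpl.

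**Figure D2:**
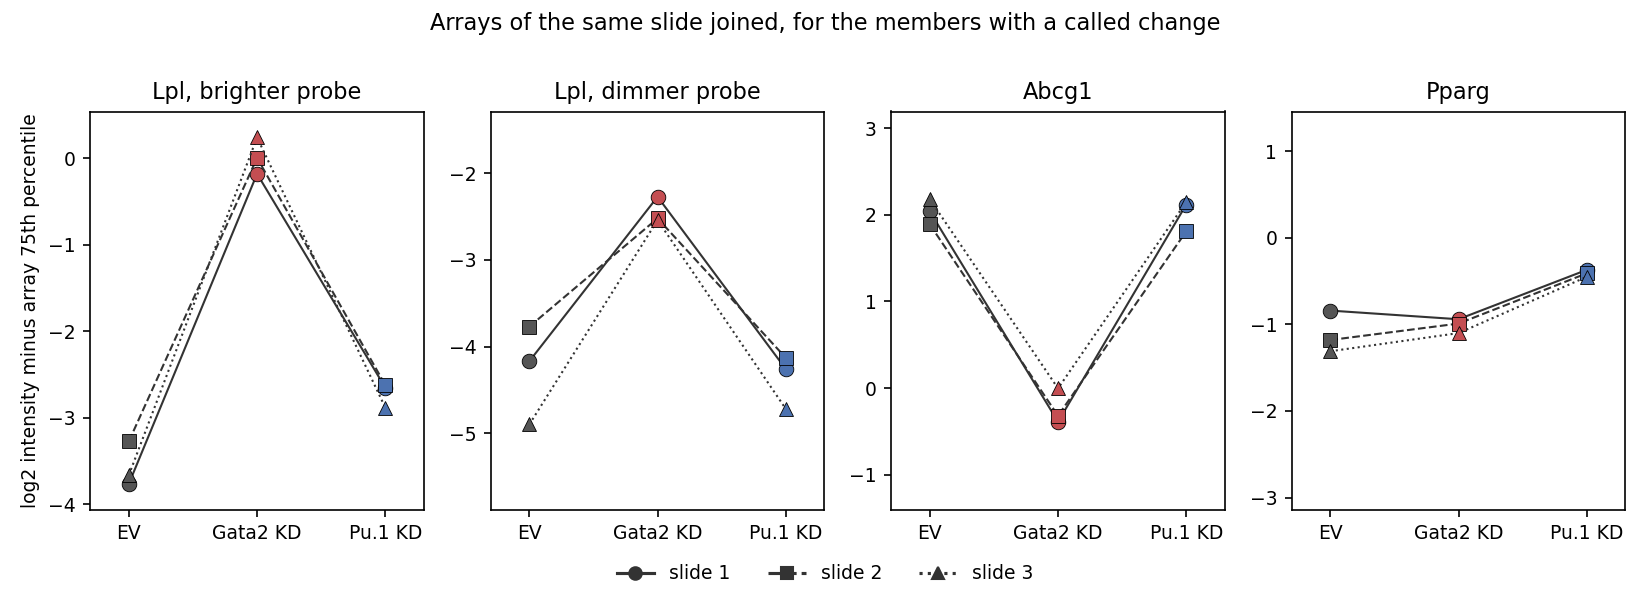
Levels of Lpl (both probes), Abcg1 and Pparg in the 3 groups, as log2 intensity minus the 75th percentile of the array, with the arrays of the same slide joined by a line (solid, slide 1; dashed, slide 2; dotted, slide 3). On each slide Lpl was highest and Abcg1 lowest in Gata2 KD, and Pparg was highest in Pu.1 KD.

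The remaining efflux genes did not pass the test in Gata2 KD. Abca1 read -1.91, -3.04 and -2.22 in EV (mean -2.39) and -3.34, -2.41 and -3.00 in Gata2 KD (mean -2.92). Its change was -0.53 with an interval of -1.46 to 0.41 (adjusted p 0.736). It was lower in Gata2 KD on all 3 slides, by 1.09, 0.20 and 0.30 on the log2 scale, but the groups overlapped and the block on slide left it uncalled (adjusted p 0.228). A fall of Abca1 as large as that of Abcg1 lies outside this interval. Apoe read 0.95, 0.73 and 1.1 in EV and 1.16, 1.27 and 1.20 in Gata2 KD. These groups did not overlap, yet the change of 0.28 (interval -0.04 to 0.60) was not called (adjusted p 0.431). Counting Apoe, 3 of 8 members had Gata2 KD and EV arrays that did not overlap, against 23.1% of all named genes.

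The uptake and carrier genes read below the 75th percentile on every array and did not pass the test. Cd36 read between -5.22 and -3.88 over all 9 arrays, and its change in Gata2 KD was 0.19 with an interval of -0.53 to 0.90 (adjusted p 0.949). Fabp4 had 3 probes. The brightest read between -2.85 and -1.64 and changed by -0.21 (interval -0.92 to 0.50, adjusted p 0.931). The other 2 Fabp4 probes were well above background on 6 and 7 of the 9 arrays and changed by 0.18 and 0.25, so the probes differ in sign and none was called.

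The nuclear receptors themselves did not pass the test in Gata2 KD. Nr1h3 read between -2.23 and -0.69 over the 9 arrays and changed by 0.08 (adjusted p 0.991). Its interval was wide in this fit without slide, -0.99 to 1.15, and its SE of 0.47 became 0.21 with slide as a block. Pparg was measured more tightly, at -1.11 ± 0.24 in EV and -1.01 ± 0.08 in Gata2 KD. Its change of 0.10 had an interval of -0.24 to 0.45 (adjusted p 0.931).

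Promoter sequence was read for 5 members (Abca1, Apoe, Cd36, Nr1h3 and Pparg), as 10 windows from 250 bases before to 50 bases after a transcript start (RefSeq, build GRCm38.p6). No window was at hand for Lpl, Abcg1, Fabp4 or Fabp5, so the search does not cover the 2 members called in Gata2 KD. The 2 windows of Nr1h3 overlap, as do 2 of those of Apoe. Both strands were searched for exact matches. The GATA motif AGATAAG, present in 3.04% of 32851 mouse windows, and the PU.1 motif GGAAGTG, present in 11% of them, were in none of the 10. The core motif of nuclear receptors, AGGTCA, was in 3 windows, 1 of Cd36 and 2 of Pparg (16.3% of all windows). The LXR repeat, which is GGTNA, then 5 bases of any kind, then GGTNA again, was in 1 window, that of Abca1 (0.718% of all windows). The letters of the repeat can overlap AGGTCA, but the Abca1 window does not hold AGGTCA itself. A match is only a run of letters, and no binding was measured here. The Abca1 window is shown because it holds the LXR repeat, and 2 Pparg windows because they hold AGGTCA. The Cd36 window, with its match at bases -228 to -223, is not shown. Capitals mark the match, as read on the strand shown.
Abca1, chr4:53159846-53160145, minus strand: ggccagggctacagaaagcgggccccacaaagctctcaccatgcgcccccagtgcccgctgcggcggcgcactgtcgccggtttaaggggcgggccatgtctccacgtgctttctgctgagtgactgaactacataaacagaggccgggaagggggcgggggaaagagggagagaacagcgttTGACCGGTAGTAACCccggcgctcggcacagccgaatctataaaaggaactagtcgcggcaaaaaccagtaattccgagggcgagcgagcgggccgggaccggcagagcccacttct
Pparg, chr6:115360894-115361193, plus strand: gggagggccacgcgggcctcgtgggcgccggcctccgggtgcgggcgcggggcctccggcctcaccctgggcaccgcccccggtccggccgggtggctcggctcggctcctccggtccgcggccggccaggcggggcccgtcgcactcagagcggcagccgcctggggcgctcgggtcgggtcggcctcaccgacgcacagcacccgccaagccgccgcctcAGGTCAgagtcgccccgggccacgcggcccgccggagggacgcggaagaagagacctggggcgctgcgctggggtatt
Pparg, chr6:115362099-115362398, plus strand: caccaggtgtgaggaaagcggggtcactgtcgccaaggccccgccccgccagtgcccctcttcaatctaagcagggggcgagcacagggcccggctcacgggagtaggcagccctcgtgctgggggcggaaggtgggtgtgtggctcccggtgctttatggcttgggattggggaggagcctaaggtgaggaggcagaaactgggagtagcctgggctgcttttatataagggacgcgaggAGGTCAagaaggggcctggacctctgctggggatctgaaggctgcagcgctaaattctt
In Abca1 the match spans bases -67 to -53 from the transcript start, and in Pparg it spans -28 to -23 and -9 to -4.

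For 4 of the uncalled members most of the spread lay between slides. Of the variance over the 9 arrays, 82.4% lay between slides for Nr1h3, 76.2% for Fabp4, 56.9% for Abca1 and 53.2% for Cd36, and 28.1% or less lay between groups. For Fabp4, Cd36 and Abca1 the array on slide 3 was the lowest in each of the 3 groups. The same held for Apoe and Pparg, for which 70.2% and 86.5% of the variance lay between groups. For Lpl and Abcg1 nearly all of the variance, 98.8% and 98.1%, lay between groups. The intervals given for the members come from the fit without slide. With slide as a block the SE of the change in Gata2 KD went from 0.47 to 0.21 for Nr1h3 and from 0.41 to 0.22 for Abca1. It went from 0.31 to 0.16 for the brightest Fabp4 probe and from 0.31 to 0.23 for Cd36. None of these 4 genes was called with that block.

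Pu.1 KD called none of the 8 members over all probes, where 3.61% of named genes were called (1.45% higher and 2.16% lower). At an unadjusted p under 0.05 limma counted 3 of the 8 members, Lpl, Pparg and Apoe, where 14.4% of all named genes passed that threshold, and with its trend and robust settings 2 of the 8 were called, Lpl and Pparg. The same 3 genes had arrays that did not overlap those of EV, against 20.6% of all named genes. The median change of the 8 members was 0.26 and that of all named genes -0.043. The EV arrays are the same ones as in the comparison with Gata2 KD.

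**Figure D3:**
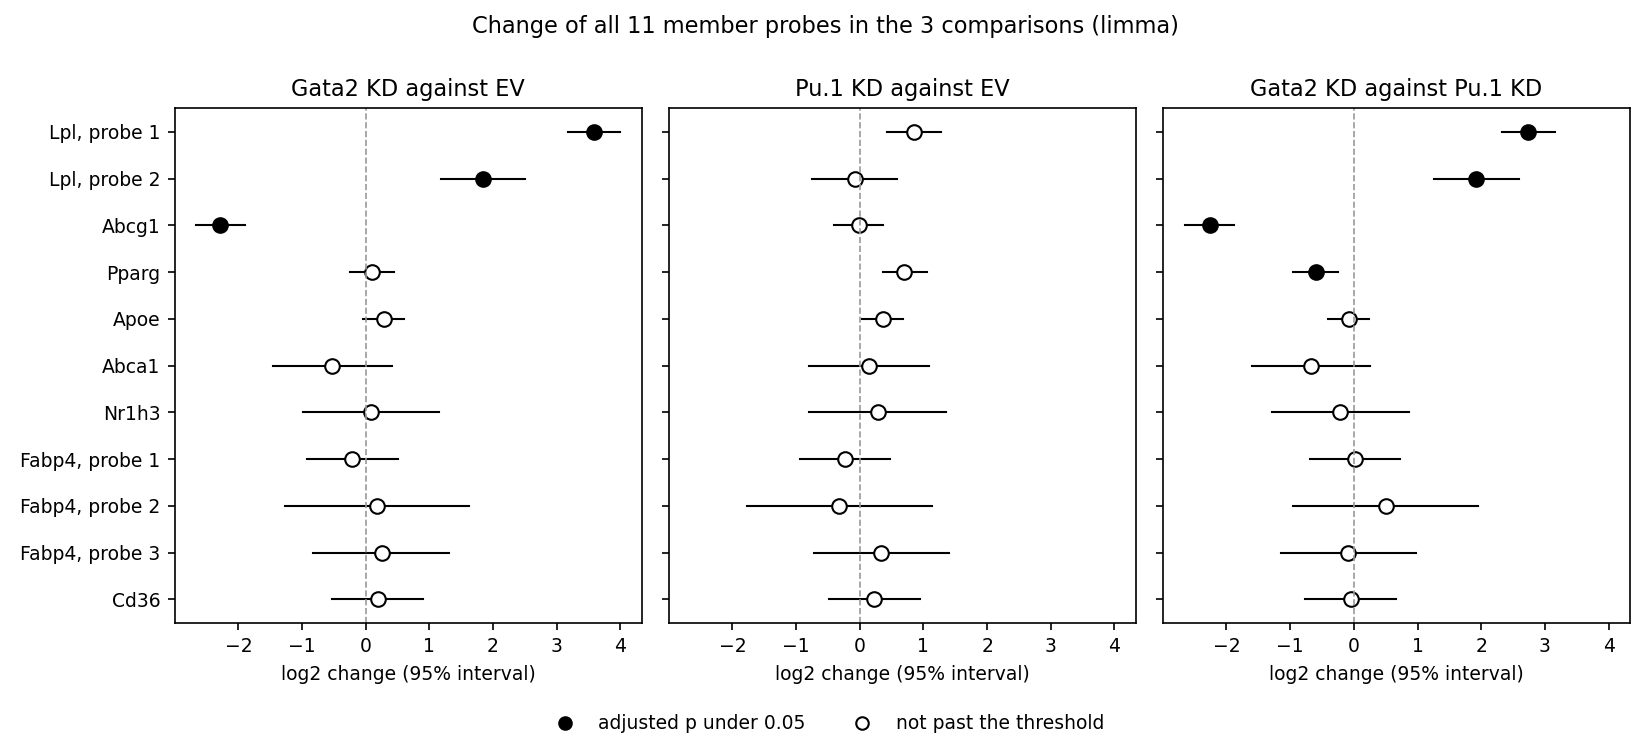
Log2 change of the 11 member probes in the 3 comparisons, with the 95% interval from limma as a line. Filled circles have an adjusted p under 0.05, and probe 1 is the brightest probe of a gene. Lpl and Abcg1 are called in Gata2 KD against EV, no probe is called in Pu.1 KD against EV, and Lpl, Abcg1 and Pparg are called between the knockdowns.

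Pparg read -0.84, -1.31 and -1.18 on the EV arrays and -0.41, -0.45 and -0.37 on the Pu.1 KD arrays. All Pu.1 KD arrays lay above all EV and Gata2 KD arrays. The change was 0.70 with an SE of 0.15 and a 95% interval of 0.36 to 1.05 (1.63-fold), just short of the threshold (adjusted p 0.0534). It was higher on all 3 slides, by 0.47, 0.77 and 0.87, and was called with slide as a block (adjusted p 0.0229). In all, 7 of 21 alternatives called it, among them leaving out EV replicate 1 (adjusted p 0.0399).

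Lpl was close to the threshold as well. Its brighter probe changed by 0.85 in Pu.1 KD with an SE of 0.18 and an interval of 0.43 to 1.27 (1.80-fold, adjusted p 0.0537). The dimmer probe changed by -0.08 with an interval of -0.75 to 0.58 (adjusted p 1.00), and its arrays overlapped those of EV. The 2 probes thus gave different answers, and their mean changed by 0.38 (adjusted p 0.585). The brighter probe was called with slide as a block (0.0396) and without EV replicate 3 (0.0369), under 5 of 21 alternatives in all. With normexp correction its change was 0.39 (adjusted p 0.228).

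No other member passed the test in Pu.1 KD. Apoe read 1.29 ± 0.09 against 0.93 ± 0.18 in EV, a change of 0.36 with an interval of 0.04 to 0.68 (adjusted p 0.313). Abcg1 changed by -0.01 with an interval of -0.40 to 0.37, so a fall of the size seen in Gata2 KD lies outside it. Abca1 changed by 0.14, Nr1h3 by 0.28, Cd36 by 0.23 and the brightest Fabp4 probe by -0.23, each with an interval that spans 0 (adjusted p from 0.951 to 1.00).

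Compared directly, the 2 knockdowns differed at 3 of the 8 members, where 12.4% of named genes were called (6.77% higher and 5.6% lower in Gata2 KD). Between the knockdowns Lpl differed by 2.74, Gata2 KD being higher, with an SE of 0.18 (6.67-fold, adjusted p 3.72e-05), and the dimmer probe by 1.92 (adjusted p 0.00348). Abcg1 was 4.80-fold lower in Gata2 KD, a change of -2.26 (SE 0.17, adjusted p 6.62e-05). Pparg was lower in Gata2 KD, with a change of -0.60 and an SE of 0.15 (1.52-fold, adjusted p 0.0427), and within the slides it differed by -0.56, -0.58 and -0.66. This call was lost under 10 of 21 alternatives, among them leaving out any 1 of the Gata2 KD or Pu.1 KD arrays (adjusted p from 0.0998 to 0.136). The same 3 genes had knockdown arrays that did not overlap, against 30.1% of all named genes. On the brighter probe the levels of Lpl ran from EV through Pu.1 KD to Gata2 KD, with the step from EV to Pu.1 KD not past the threshold. On the dimmer probe EV and Pu.1 KD (-4.28 and -4.37) did not differ beyond their spread, and Gata2 KD lay above both. For Abcg1 EV and Pu.1 KD did not differ beyond their spread and Gata2 KD lay below both. For Pparg EV and Gata2 KD did not differ beyond their spread and Pu.1 KD lay highest.

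The wider lipid pathway was described with 8 lists of 85 genes, of which 81 were tested. The lists, too, were chosen with earlier results of these data known, so a share above that of all named genes is not independent support. In Gata2 KD 14 of the 81 were called (17.3%), 11 higher and 3 lower. Among all named genes 7.15% were called there, 4.21% higher and 2.95% lower. The split between higher and lower differed among the alternatives. Quantile normalization gave 11 higher and 6 lower, and scaling to the array median gave 9 and 0. With the scaling kept, normexp correction and the trend and robust settings each gave 13 and 8, and the slide block gave 17 and 9. The authors' log2 values, which differ in background correction too, gave 15 and 8. In Pu.1 KD 2 of 81 were called (2.47%, against 3.61% of all named genes), both lower. Leaving out Gata2 KD replicate 2 or 3 brought the count in Gata2 KD to 8 and 9, and leaving out any 1 array brought that in Pu.1 KD to 0 or 1. Between the knockdowns 21 of 81 were called (25.9%, against 12.4% of all named genes). Genes beyond the largest rise and fall of a list are named because they passed the test and were chosen after their values were seen.

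Lipid storage and hydrolysis was the list with the most calls in Gata2 KD. Of its 14 genes 6 rose and none fell, where 4.21% of all named genes rose and 2.95% fell. At an unadjusted p under 0.05, which 17.9% of all named genes passed, 8 were higher and 0 lower. The median change of the list was 0.68. Soat1, which esterifies cholesterol for storage, rose most, from -0.30 ± 0.19 to 1.79 ± 0.14, a change of 2.09 with an SE of 0.15 (4.27-fold, adjusted p 0.000104). Dgat2 and Dgat1, the enzymes of the last step of triglyceride synthesis, rose by 1.99 (adjusted p 0.00331) and 1.59 (0.000200). Lipa, the lysosomal acid lipase, rose by 1.23 (0.000710). Mgll, which cleaves monoglycerides, and Plin3, a coat protein of lipid droplets, rose by 0.89 (0.0222) and 0.80 (0.0217), and these 2 calls were each lost under 6 of 21 alternatives. The list's count ran from 4 to 8 over all alternatives and was 4 when EV replicate 1, Gata2 KD replicate 1 or Gata2 KD replicate 2 was removed. In Pu.1 KD the median was -0.20, and 1 gene passed the test, as did 3.61% of all named genes. Lipa fell there by 0.69 (adjusted p 0.0266), a call lost under 11 of 21 alternatives, including the removal of any array but Gata2 KD replicate 1. In the direct comparison 9 of the 14 were higher in Gata2 KD and none lower, where 6.77% of all named genes were higher. At an unadjusted p under 0.05, which 22.5% of all named genes passed, the counts were 10 and 0. Over the alternatives 6 to 11 were called.

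**Figure D4:**
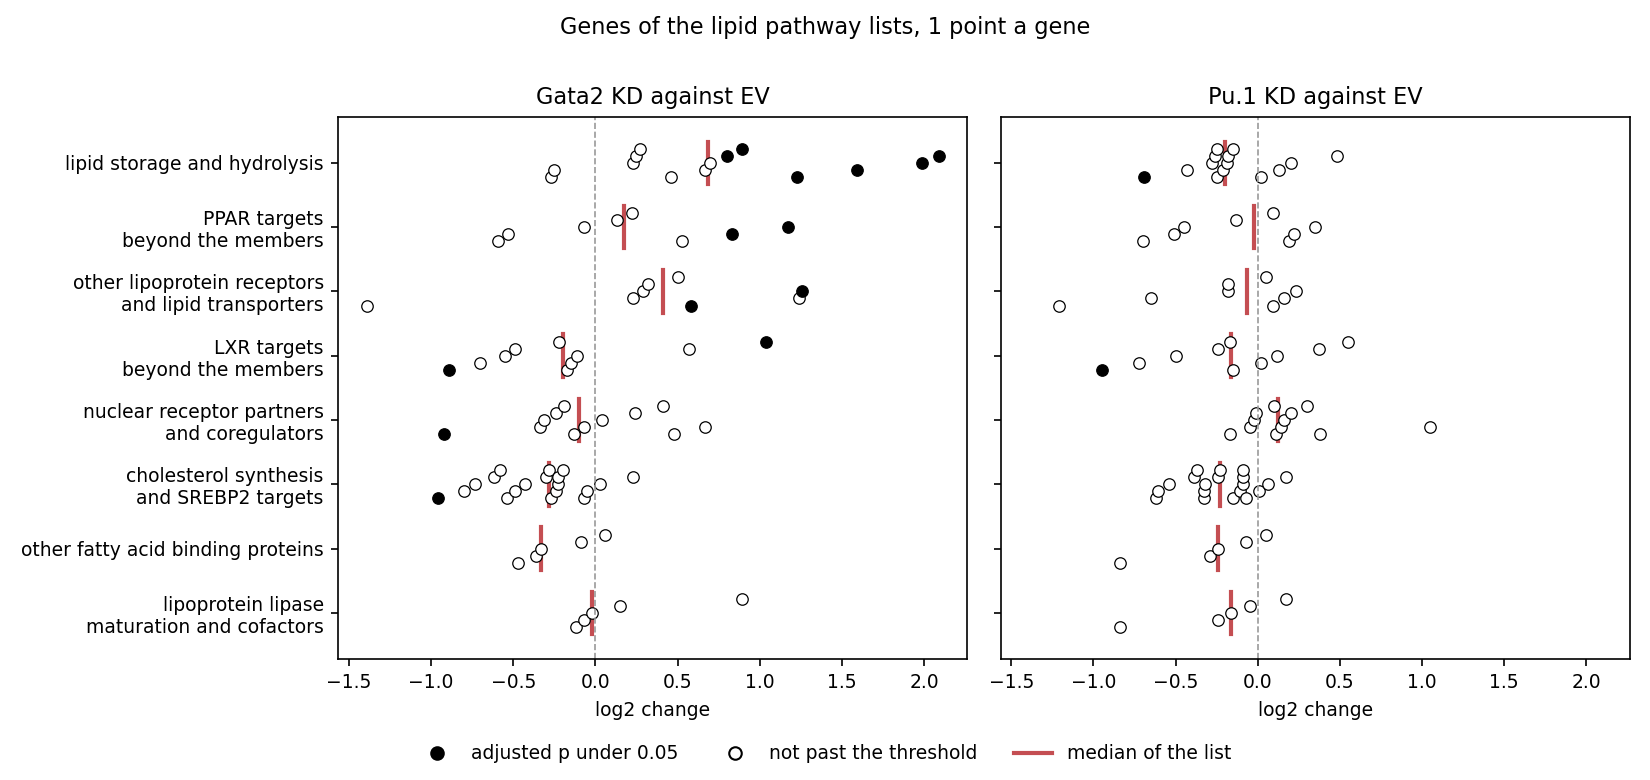
Log2 change of each tested gene of the 8 lipid pathway lists in Gata2 KD (left) and Pu.1 KD (right) against EV. Each point is a gene, filled where the adjusted p is under 0.05, and the red bar is the median of the list. Called genes of the storage list lie to the right in Gata2 KD, and that list's median is 0.68 there and -0.20 in Pu.1 KD.

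Among PPAR targets other than the members, 2 of 8 rose in Gata2 KD, where 4.21% of all named genes did. Plin2, which coats lipid droplets, rose by 1.17 (2.25-fold, adjusted p 0.00417), and Angptl4, a secreted inhibitor of LPL, rose by 0.83 (0.0217, lost under 6 of 21 alternatives). The median of the list was 0.17. In Pu.1 KD none of the 8 was called, and 1 was with the trend and robust settings. At an unadjusted p under 0.05, which 14.4% of all named genes passed there, 3 were lower. Among LXR targets other than the members, 1 of 10 rose and 1 fell in Gata2 KD, with a median of -0.19. Of all named genes 4.21% rose and 2.95% fell there. Arl4c, a small GTPase, rose by 1.04 (2.05-fold, adjusted p 0.00557), although the mean of its probes was not called (0.196). Mylip, a ubiquitin ligase that degrades the LDL receptor, fell by 0.89 (adjusted p 0.0142). That call was lost under 7 of 21 alternatives, including without EV replicate 2 (0.0572), Gata2 KD replicate 2 (0.0768) or Gata2 KD replicate 3 (0.0667). Lpcat3, which remodels membrane phospholipids, fell in Pu.1 KD by 0.95 (adjusted p 0.0424). This was lost under 13 of 21 alternatives, including slide as a block (0.0511) and the removal of any array but EV replicate 3.

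Of 8 other lipoprotein receptors and lipid transporters, 2 rose in Gata2 KD, where 4.21% of all named genes did. Lrp1, an endocytic receptor for APOE-bearing remnants, rose by 1.26 (2.39-fold, adjusted p 0.0238), which was lost without any 1 of the Gata2 KD arrays (0.0592 to 0.0969). Scarb1, the HDL receptor, rose by 0.58 (0.0443), which was lost under 14 of 21 alternatives. Of 12 partners and coregulators of the nuclear receptors, Nrip1, a corepressor, was the 1 gene called, and it fell by 0.92 (adjusted p 0.00691). Among all named genes 7.15% were called in Gata2 KD, 2.95% being lower. Of 19 genes of cholesterol synthesis, Msmo1, a sterol demethylating enzyme, was the 1 gene called and fell by 0.96 (adjusted p 0.00664). At an unadjusted p under 0.05, which 17.9% of all named genes passed, this list counted 8 lower and 0 higher. Its median was -0.28, and with the trend and robust settings 5 were called. The calls of Nrip1 and Msmo1 were lost with scaling to the median (0.0947 and 0.0865). In Pu.1 KD limma called none of these receptors, coregulators or synthesis genes. At an unadjusted p under 0.05, which 14.4% of all named genes passed there, they counted 1, 2 and 3. With the trend and robust settings 0, 0 and 1 were called. The LPL cofactor list (5 genes) and the other fatty acid binding proteins (5 tested of 6) had no called gene in either comparison against EV, and limma counted none at an unadjusted p under 0.05. With the trend and robust settings the count was also 0, and without EV replicate 3 the cofactor list had 1 in Gata2 KD. Their medians in Gata2 KD were -0.02 and -0.33.

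In Gata2 KD, where Lpl rose and Abcg1 fell, markers of monocytes, macrophages and neutrophils rose as well. Of 9 measured monocyte and macrophage markers, 7 were called higher in Gata2 KD (4.21% of all named genes were), with a median change of 2.11. Their summed linear level (in units of the 75th percentile) was 5.04 to 5.66 in EV, 31.1 to 34.5 in Gata2 KD and 2.64 to 3.11 in Pu.1 KD. Mrc1, 1 of the 7 called, was not well above background on any EV or Pu.1 KD array. It was bright enough to be tested only through the Gata2 KD arrays. All 7 measured neutrophil markers rose in Gata2 KD (median 3.05), and the mast cell and basophil list fell from a summed level of 110 to 128 in EV to 22.6 to 24.3, with 4 of 7 genes called lower. Of the dendritic cell list 2 of 6 rose. In Pu.1 KD 2 monocyte and macrophage markers and 6 neutrophil markers fell, as did 2 markers each of the dendritic cell and the mast cell lists. Among all named genes 2.16% fell and 1.45% rose in Pu.1 KD, and 2.95% fell in Gata2 KD. Of 5 megakaryocyte markers 1 rose in each knockdown, and of 4 measured erythroid markers 2 fell in Gata2 KD and 2 rose in Pu.1 KD. Of the progenitor markers 2 rose and 2 fell in Gata2 KD, the falls being those of Meis1 and of Gata2, the gene the shRNA targets. Another 1 rose and 1 fell in Pu.1 KD against EV, counted on the same list. The part of these shifts in the changes of the members was not tested. In bulk RNA of sorted cells, a change in the number of cells of a type and a change in RNA per cell cannot be told apart. Adipocyte and endothelial markers, which cover other cells that express Lpl, Fabp4 or Cd36, had no called gene among 5 and 5 in Gata2 KD or Pu.1 KD, and the summed adipocyte level was 0.607 to 1.17 in EV and 0.641 to 1.12 in Gata2 KD.

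The genes whose levels over the 9 arrays were most like those of Lpl, among 15473 named genes, were Soat1 (Pearson r 0.997), Slc7a7 (0.997) and Cxcl10 (0.995). Slc7a7, an amino acid transporter, rose by 1.72 in Gata2 KD (adjusted p 0.000128). Cxcl10, an interferon-induced chemokine, was not well above background on any EV array. It was at least 33.2-fold higher in Gata2 KD (adjusted p 7.49e-06), a bound that takes as the EV level on each array its lowest value well above background, or the probe's reading where that is higher. Its measured means were -0.82 and -7.21, a change of 6.39 that became 2.27 with normexp correction and 3.01 with the authors' log2 values, so the bound holds only for the background subtraction used here. Most like Abcg1 were Tnfrsf9 (r 0.997), Il1rl1 (0.992) and Phlda2 (0.991). Il1rl1, the interleukin 33 receptor, fell by 3.21 (adjusted p 1.41e-05). Tnfrsf9, a costimulatory receptor, fell by 1.98 (0.000124), and Phlda2 fell by 2.29 (6.88e-05). The 9 points come from 3 groups and share their slides, so the correlations describe these arrays and carry no test.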

How the data were processed

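RNA of 9 samples was hybridised to single-color Agilent mouse arrays by the authors, who read spot intensities with Feature Extraction 10.1.1.1 per the file headers. The intensity values used are its processed signals, deposited by the authors with background already subtracted. The authors also deposited a log2 table, which tracked the log2 of the median signal without background subtraction. How it was normalized is not given in the sources used here, and it served only as an alternative.

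Control and outlier-flagged spots were left out, and spots of the same probe were averaged. The log2 value minus the 75th percentile of the array was fitted with limma 3.58.1 (R 4.3.3) on group means of all 9 arrays, two-sided. The 36585 probes well above background on at least 3 arrays, with at least 2 values per group, were tested. Probes were named by RefSeq accession (GRCm38.p6 table), which matched 23374 of 41174. The brightest probe stands for a gene. The fit was tested on simulated data with independent noise on each array. That simulation held no slide effect, so it did not test the fit under shared slides.

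The genes and lists were chosen with earlier results of these data known. Named were all members, the targeted genes, the largest called rise and fall of each pathway list, and the 3 genes most like each member called against EV. The 21 alternatives cover background correction, scaling, filters, limma settings, blocks, probe choice and single arrays left out.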

Additional observations from a re-analysis of the deposited data

How the results depend on the processing

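Over 21 alternatives the count of members called in Gata2 KD stayed at 2, and that between the knockdowns at 2 or 3. In Pu.1 KD the member count of 0 became 2 with slide as a block, with quantile normalization, with limma's trend and robust options and with a filter requiring all 9 arrays well above background. It became 1 with normexp correction and with outlier-flagged spots kept, and was 0 to 1 with 1 array left out. The pathway count of 14 in Gata2 KD became 9 with the replicate block, 26 with the slide block, 9 when scaled to the median, 23 with the deposited log2 values, 9 with only the 2 groups compared, and 8 to 15 with 1 array left out. The pathway count of 2 in Pu.1 KD became 0, 5, 0, 6 and 0 under those settings, 4 with normexp correction, 4 with the trend and robust settings, 1 with no filter on dim probes, and 0 to 1 with 1 array left out. Calls over all 36585 tested probes moved too. In Gata2 KD their count of 1902 became 1172 with the replicate block, 2886 with the slide block and 1203 when scaled to the median. It became 2620 with the deposited log2 values and 1114 with only the 2 groups compared. In Pu.1 KD the count of 986 became 234, 1875, 377, 1785 and 223 under those settings. The cause was not tested.

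Uncalled members changed sign under some settings. Abcg1 in Pu.1 KD was 0.04 with normexp, 0.0092 with quantile normalization, 0.02 when scaled to the median and 0.08 with the deposited values. Fabp4 was 0.07 in Gata2 KD with the mean of its probes, and between the knockdowns -0.01 with normexp and -0.05 with the deposited values. Cd36 between the knockdowns was 0.03 with normexp, and Nr1h3 in Gata2 KD was -0.03 with the deposited values. With 1 array left out, the change in Pu.1 KD ran from -0.18 to 0.47 for Abca1, -0.09 to 0.09 for Abcg1, -0.52 to 0.04 for Fabp4, -0.06 to 0.61 for Cd36 and -0.04 to 0.73 for Nr1h3. In Gata2 KD it ran from -0.50 to 0.05 for Fabp4, -0.10 to 0.57 for Cd36 and -0.25 to 0.52 for Nr1h3. Between the knockdowns it ran from -0.21 to 0.21 for Fabp4, -0.18 to 0.03 for Cd36 and -0.51 to 0.10 for Nr1h3.

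Replicate numbers showed no clear pairing of the arrays. Most arrays of the same number lie on different slides, so this check cannot tell whether they shared a culture. Arrays of the same number had deviations correlated between -0.552 and 0.652, with 4 of 9 pairs over 0.1, while arrays of the same slide had 8 of 9 pairs over 0.1. Among the members the replicate block changed 1 call, that of Pparg between the knockdowns (adjusted p 0.126). Signal close to background limits what the probes of Cd36 and the 2 dimmer Fabp4 probes can show, and also the size of the Lpl rise, since both Lpl probes are dim in EV (-3.56 and -4.28).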
